A study of Mus musculus with 6 samples.

Results

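Homeobox genes other than Lhx3 and Pou4f3 were followed in RNA from embryonic mouse outer hair cells, the cochlear sensory cells that change length when stimulated. The members were all symbols of the count files that belong to 22 named families: the 4 Hox clusters, Lhx, Isl, Dlx, Nkx, Msx, Emx, Hmx, Otx, Gbx, Irx, Meis, Pbx, Pou, Cux, Onecut, Zeb, Zfhx and Tshz. This gave 119 of 23337 symbols. The rule uses names and no measured value, but it was set with earlier results of these data known. Lhx3 and Pou4f3 were left out because they belong to the core of hair cell transcription factors. There were 3 Insm1-KO and 3 Insm1-Het libraries, all of them sorted as Insm1-GFP-Cre positive cells from cochleae at E18.5. The Insm1 protein is a zinc-finger factor that newly formed outer hair cells make for a short time, and the contrast asks which genes differ in level when it is lost. By label all the sorted cells carried the GFP-Cre allele, and Insm1-Het is the comparison group in place of a wild type. Neither the deleted stretch of Insm1 nor the origin of a library (1 animal, a litter or a pool) is stated in the labels. A p-value hence reflects the spread among these 6 samples alone, and that spread may be technical.

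A homeobox encodes the homeodomain, a helix-turn-helix fold that binds short AT-rich DNA sites. Since the domain alone binds with little selectivity, many homeodomain proteins act with partners: Pbx and Meis proteins of the TALE class bind beside Hox proteins, and LIM-homeodomain proteins work through Ldb adaptors. Hox genes record position along the body axis up to the hindbrain, and the otic placode forms beside the hindbrain. In the mouse inner ear, homeobox genes are known for dividing the otocyst into regions, for sensory patches and neurons, and for the mesenchyme around the labyrinth.

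The libraries held 9259736, 7705177 and 9748629 counts in Insm1-KO and 11738214, 10721902 and 12427039 counts in Insm1-Het. Between 12126 and 13763 genes had a count per library. Levels are in CPM, a gene's counts relative to its library total times the TMM factor, and 3 counts correspond to 0.237 to 0.391 CPM in the different libraries. Insm1 itself had 78.7, 60.3 and 18.7 CPM in Insm1-KO, against 109.3, 116.2 and 69.2 CPM in Insm1-Het. Its log2 fold change was -0.90 with a standard error (SE) of 0.50. The quasi-likelihood test of edgeR gave an unadjusted p of 0.0919, and Benjamini-Hochberg adjustment over all genes brought it to 0.938. Lower Insm1 RNA in the libraries labelled KO was thus not shown beyond their spread, and KO replicate 3 was the lowest of the 6. All 10 hair cell markers on the list (among them Myo7a, Gfi1 and Slc26a5) were at 1 CPM or more in every library, with sums of 9504 to 11070 CPM in Insm1-KO and 9619 to 9913 CPM in Insm1-Het. Markers of other cells were also counted: the 8 supporting cell genes summed to 1746 to 2219 CPM in Insm1-KO and 1445 to 1666 CPM in Insm1-Het, and the 9 neuron genes to 852 to 1510 CPM in Insm1-KO and 889 to 1059 CPM in Insm1-Het. The 6 glia genes summed to 200 to 228 CPM in Insm1-KO and 136 to 267 CPM in Insm1-Het, the 6 greater ridge genes to 1479 to 2515 CPM in Insm1-KO and 1338 to 2451 CPM in Insm1-Het, and the 5 immune genes to 39.6 to 136 CPM in Insm1-KO and 87.5 to 122 CPM in Insm1-Het. The 5 endothelial genes summed to 7.47 to 30.0 CPM in Insm1-KO and 6.60 to 25.8 CPM in Insm1-Het. In these bulk libraries, fewer cells of a type and less RNA per cell cannot be told apart.

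To show the kind of sequence that lies before these genes, 4 promoters are printed here, each as the 250 bases before the gene's start on GRCm38.p6 from RefSeq, 5′ to 3′ on the gene's own strand, with every CpG in capitals. Cux1, Zfhx2 and Irx2 are the members with the smallest unadjusted p for the genotype contrast. Hoxb4 had no count in any library, and among the members without counts its promoter has the median number of CpGs.
Cux1, chr5:136565982-136566231, minus strand, 18 CpGs: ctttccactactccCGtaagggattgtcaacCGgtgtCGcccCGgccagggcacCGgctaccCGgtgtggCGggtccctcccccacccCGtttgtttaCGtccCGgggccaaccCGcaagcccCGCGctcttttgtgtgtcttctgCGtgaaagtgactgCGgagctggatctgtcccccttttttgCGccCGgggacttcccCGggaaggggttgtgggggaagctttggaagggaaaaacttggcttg
Zfhx2, chr14:55092049-55092298, minus strand, 15 CpGs: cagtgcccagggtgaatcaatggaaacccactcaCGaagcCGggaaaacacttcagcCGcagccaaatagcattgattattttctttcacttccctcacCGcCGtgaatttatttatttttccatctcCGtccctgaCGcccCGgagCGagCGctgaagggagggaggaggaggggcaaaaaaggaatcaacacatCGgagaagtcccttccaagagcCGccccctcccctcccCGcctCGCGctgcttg
Irx2, chr13:72628570-72628819, plus strand, 19 CpGs: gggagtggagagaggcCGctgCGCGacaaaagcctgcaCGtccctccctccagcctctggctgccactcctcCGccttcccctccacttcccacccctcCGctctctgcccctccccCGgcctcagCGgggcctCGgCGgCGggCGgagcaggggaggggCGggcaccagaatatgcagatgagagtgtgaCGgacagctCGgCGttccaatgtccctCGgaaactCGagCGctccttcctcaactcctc
Hoxb4, chr11:96318017-96318266, plus strand, 14 CpGs: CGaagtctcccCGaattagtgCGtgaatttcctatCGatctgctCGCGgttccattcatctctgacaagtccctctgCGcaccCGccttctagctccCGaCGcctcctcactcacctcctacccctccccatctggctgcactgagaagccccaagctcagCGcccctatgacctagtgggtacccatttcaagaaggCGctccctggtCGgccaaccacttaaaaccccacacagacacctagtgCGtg

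All 4 windows hold more CpGs than the median promoter, but the members varied widely. A promoter entry was found for 79 of the 119 members, and their median was 15 CpGs per 250 bases (range 1 to 47), against 6 over the promoters of 27025 genes. Among members at 1 CPM or more in all libraries the median lay between 18 and 19 CpGs (range 2 to 40, 14 genes). Among members with no count it was 14 CpGs (range 1 to 35, 35 genes), so the 2 ranges overlapped almost entirely. Of all promoters, 29.6% held 14 or more CpGs. For Zfhx2, the 50 bases that follow the start used here were found in no transcript of the gene in GENCODE M21, so the printed window belongs to the RefSeq start only. The Cux1 window lies inside the span of the gene in GENCODE M21 (chr5:136248135-136567490), so it precedes a start within the gene.

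Most of the 119 members had few or no counts in the sorted cells. In all 6 libraries together 57 members had 0 counts, or 47.9% against 32.9% of all symbols. A count of 0 over all libraries allows up to 0.0487 CPM, from 3 counts of the total. A further 33 members had some counts but fell below the minimum for testing, 9 were tested but lay under 1 CPM in at least 1 library, and 20 were at 1 CPM or more in every library. These 20 are 16.8% of the members, against 40.0% of all symbols, and are called on in what follows. The number of members without counts leaned on KO replicate 3: without it, 70 members had 0 counts, against 57 with it and 58 to 60 without any 1 of the other libraries.

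**Figure D1:**
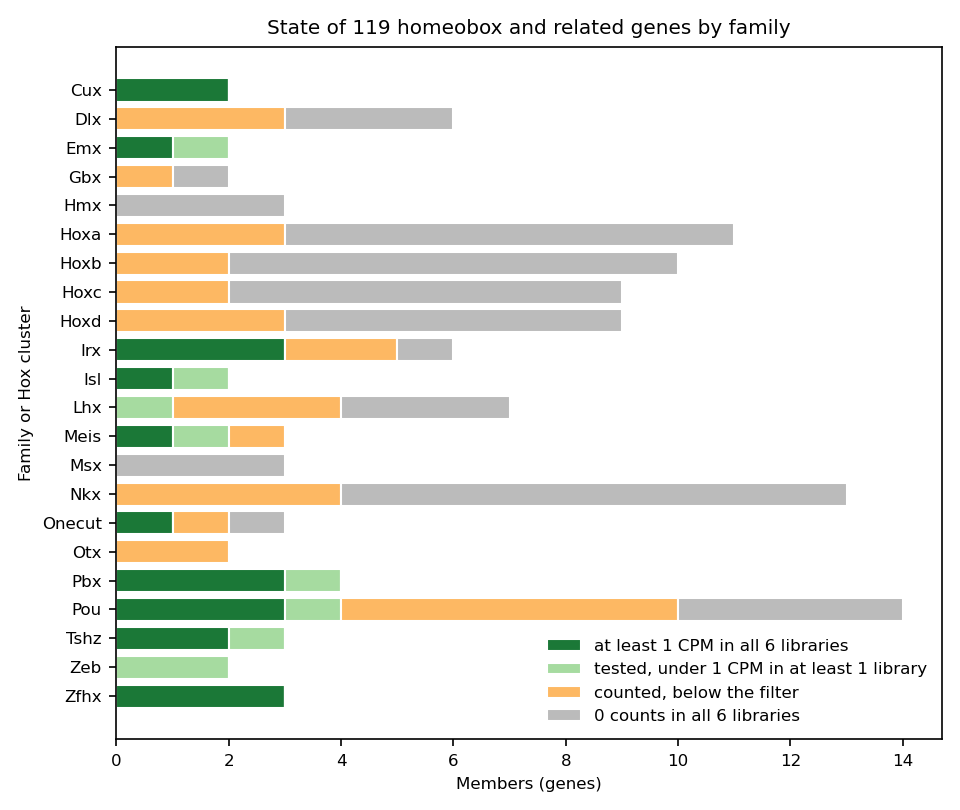
Number of members per family or Hox cluster (bars start at 0), split by state over the 6 libraries. All Hox, Hmx, Msx, Nkx, Dlx, Otx and Gbx genes are grey or orange, that is, at 0 or below the minimum for testing, whereas Pbx, Cux and Zfhx are mostly or wholly on.

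The Hox clusters, which carry the positional code of the trunk and hindbrain, were near the detection limit. Of their 39 members 29 had 0 counts and 10 were below the minimum for testing, so none was on. All Hox genes together had 0, 1 and 13 counts in the Insm1-KO libraries and 0, 10 and 21 counts in the Insm1-Het libraries. The 21 counts of Het replicate 3 were 17 of Hoxa2, the most anteriorly expressed Hox gene of the hindbrain, and 4 of Hoxd1. The 10 counts of Het replicate 2 were all of Hoxd1, and the 13 of KO replicate 3 were spread over 8 genes, with 3 for Hoxb9 and 2 for Hoxc10. No Hox gene therefore had counts in every library of either genotype.

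Families known for other regions of the otocyst or for other organs were also nearly empty. The 3 Hmx genes, of which Hmx2 and Hmx3 are needed for the vestibular part of the mouse inner ear, and the 3 Msx genes had 0 counts in all libraries. Of 13 Nkx genes 9 had 0 counts, and of 6 Dlx genes 3. Otx2, a head gap gene, had 20 counts in Het replicate 2 and 1 count in KO replicate 3, and none in the remaining libraries. Gbx1 had 4 counts in Het replicate 3 alone.

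The members that were on fell mostly into the TALE, POU, CUT and zinc-finger homeobox classes. Of the LIM class only Isl1 was on, and 0 of the 7 Lhx members. To rank genes against each other, CPM was divided by the length of the merged exons in kilobases (GENCODE M21). On that scale Irx2, an Iroquois factor, had 56.2 ± 16.3 CPM per kb over the 6 libraries (SD), followed by Emx2 with 30.0 ± 9.82, Isl1 with 24.7 ± 7.81 and Pbx2 with 15.3 ± 7.71 CPM per kb. Outside the members, Pou4f3 had 84.9, Lhx3 30.2 and Insm1 24.3 CPM per kb. The next members were close together: Zfhx3 with 9.81, Cux1 with 8.12, Pou3f3 with 7.33, Pou2f1 with 7.29 and Meis3 with 7.11 CPM per kb. Onecut2 was the lowest of the 20 with 0.857 CPM per kb.

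Neighbours in that order were not separated by all libraries. Irx2 was above Emx2 in 5 of 6 libraries, Emx2 above Isl1 in 4, Isl1 above Pbx2 in 5 and Pbx2 above Zfhx3 in 4. In KO replicate 3, Emx2 had 33.4 and Isl1 36.5 CPM per kb, both above Irx2 with 31.3. The order is therefore only approximate.

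**Figure D2:**
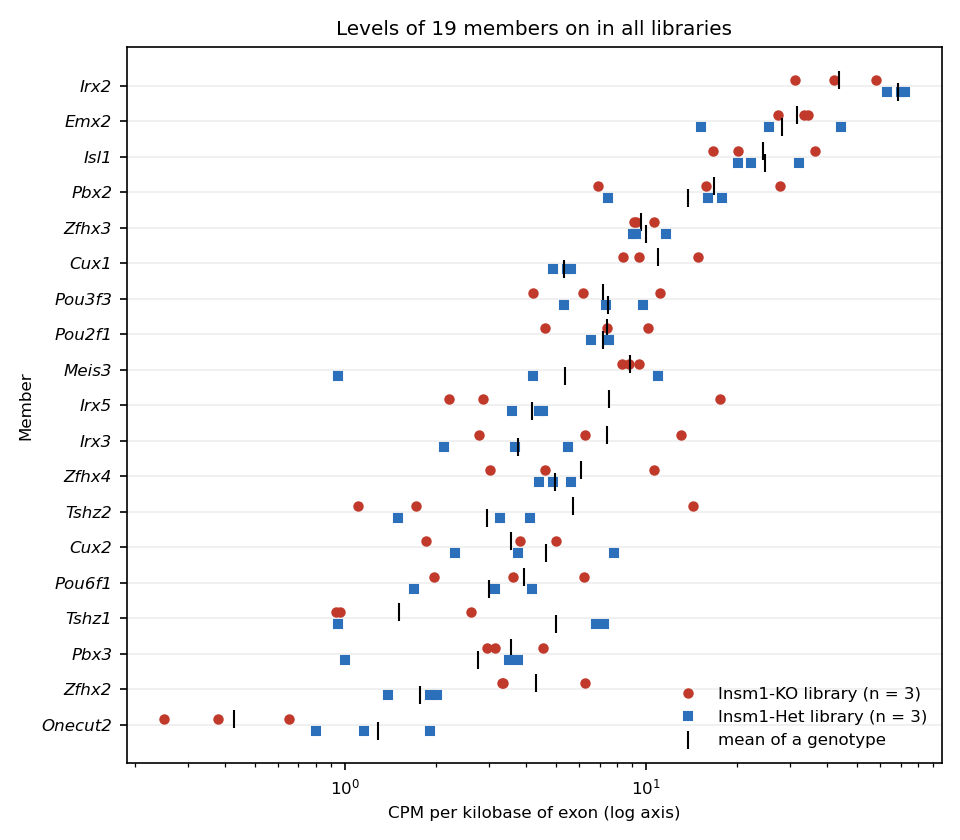
Level of 19 of the 20 members at 1 CPM or more in all libraries, in CPM per kilobase of exon on a log axis, with 1 point per library (circles Insm1-KO, squares Insm1-Het) and a tick at each genotype mean. Irx2 lies at the top of those drawn, and only Irx2, Cux1, Zfhx2 and Onecut2 have genotypes that do not overlap.

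The genotype contrast was tested in the 29 members that passed the minimum for testing, within a fit of 11714 genes. No member passed an adjusted p of 0.05 after Benjamini-Hochberg adjustment in the quasi-likelihood test of edgeR, and neither did any other gene (0% of the genes tested). The smallest adjusted p of a member in that test was 0.918, for Cux1. At an unadjusted p under 0.05 there were 2 members higher and 1 lower in Insm1-KO, where the same held for 3.19% and 2.15% of all genes tested, 626 genes in all. By other tools, DESeq2 gave 5 of 62 members at an unadjusted p under 0.05, beside 1097 of 15648 genes. For DESeq2 these totals are all members and genes with a count, whether or not each was given a p. Limma-voom gave 3 of 29 members, beside 606 of 11714 genes. In both tools again 0 members were past the adjusted threshold. Leaving out 1 library under edgeR moved the number of members at that unadjusted p. It was lowest without Het replicate 3, with 1 of 29 members beside 475 of 12164 genes. It was highest without KO replicate 1, with 5 of 29 members beside 1012 of 12255 genes. Members without overlap of the genotypes numbered 2 higher (Cux1 and Zfhx2) and 2 lower (Irx2 and Onecut2), beside 5.08% and 6.1% of all genes tested.

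Over all genes tested the median log2 fold change was 0.02, with 5957 above 0 and 5757 below. The 29 members had a median of 0.11, with 16 above 0 and 13 below and a range of -2.26 to 1.70. Since a gene could pass the minimum for testing through its higher genotype alone, this is a description of the 29 genes and not of all 119. Their median standard error was 0.81, against 0.65 over all genes tested. A change of 2-fold was outside the 95% interval for 4 of the 29 members (13.8%), among them Zfhx3, Pou2f1 and Isl1, and for 15.9% of all genes tested. The intervals of the remaining 25 members reached beyond a 2-fold change.

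**Figure D3:**
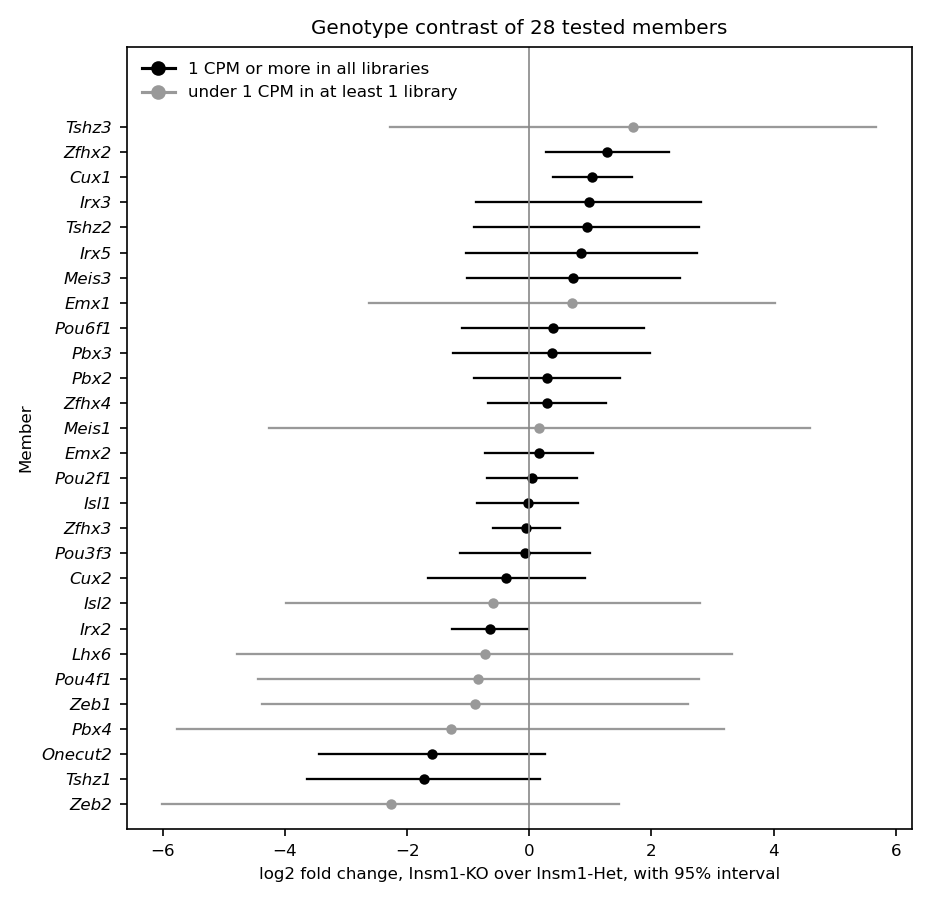
Log2 fold change of 28 of the 29 tested members, Insm1-KO over Insm1-Het, with 95% intervals (points are fitted values, black for members at 1 CPM or more in all libraries and grey for the rest). Cux1 and Zfhx2 lie wholly above 0 and Irx2 below, before adjustment, and the grey members have the widest intervals.

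Among the CUT genes, Cux1 encodes a homeodomain protein known mainly as a transcriptional repressor, and its locus also makes CASP, a Golgi protein without the homeodomain. Cux1 (chr5:136248135-136567490, minus strand) had 167.7, 189.8 and 298.2 CPM in Insm1-KO, against 109.4, 98.1 and 112.6 CPM in Insm1-Het. Every Insm1-KO library was above every Insm1-Het library, and KO replicate 3 was the highest. The mean was 219 ± 69.9 CPM in Insm1-KO and 107 ± 7.65 CPM in Insm1-Het (SD, n = 3 each), a log2 fold change of 1.03 (SE 0.30, 95% interval 0.39 to 1.68). In edgeR's quasi-likelihood test the unadjusted p was 0.00414 and the Benjamini-Hochberg adjusted p 0.918, so the difference did not pass over all genes. Counts per gene symbol cannot say which of the locus's products carries the difference, and exons of Cux1 overlap a gene on the other strand (Gm16599).

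The close relative Cux2 did not share that pattern. Cux2 had 38.3, 50.7 and 18.7 CPM in Insm1-KO and 23.4, 78.9 and 37.9 CPM in Insm1-Het. The ranges overlapped in part, with KO replicate 3 the lowest and Het replicate 2 the highest of the 6. Its log2 fold change was -0.38. Onecut2 belongs to the other CUT family, known from liver, pancreas and retina, and had 4.06, 6.13 and 10.6 CPM in Insm1-KO against 18.7, 13.0 and 31.0 CPM in Insm1-Het. The genotypes did not overlap, and the log2 fold change was -1.59 (SE 0.86, 95% interval -3.44 to 0.26, unadjusted p = 0.0858). Onecut2 was lower in Insm1-KO by its values in each library, but neither the unadjusted nor the adjusted p passed.

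Zfhx2, Zfhx3 and Zfhx4 encode very large proteins with several zinc fingers and homeodomains, studied mostly in neurons. Zfhx2 (chr14:55060262-55092324, minus strand) had 60.1, 60.8 and 114 CPM in Insm1-KO, against 34.9, 36.7 and 25.1 CPM in Insm1-Het. All Insm1-KO values were above all Insm1-Het values, with KO replicate 3 far above the other 2. Insm1-KO averaged 78.2 ± 30.7 CPM and Insm1-Het 32.2 ± 6.22 CPM (SD, n = 3 each), a log2 fold change of 1.28 (SE 0.47, 95% interval 0.27 to 2.28). The unadjusted p was 0.0164 and the adjusted p 0.92 (edgeR, quasi-likelihood test, Benjamini-Hochberg). An antisense gene, Zfhx2os, shares exon sequence with Zfhx2, and without a stated strand setting the reads of the pair cannot be told apart. Under its older symbol Zfhx2as it had 0 counts in every Insm1-KO library and 0, 0 and 1 counts in Insm1-Het. Zfhx3 (chr8:107942644-108961630) was steady across the libraries: it had 190.9, 194.2 and 222.0 CPM in Insm1-KO and 190.1, 194.0 and 243.6 CPM in Insm1-Het. Its log2 fold change was -0.05, with a 95% interval of -0.59 to 0.50. Zfhx4 overlapped between the genotypes, with 47.6, 72.5 and 167 CPM in Insm1-KO and 69.2, 77.4 and 88.8 CPM in Insm1-Het.

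Of the Iroquois genes, TALE factors that in vertebrates pattern the neural plate, heart and other organs, Irx2 was the most abundant. Irx2 (chr13:72628820-72634198, plus strand) had 190.5, 137.9 and 102.8 CPM in Insm1-KO, against 230.9, 237.6 and 207.3 CPM in Insm1-Het. Each Insm1-KO library was below each Insm1-Het library, and KO replicate 3 was the lowest. On average there were 144 ± 44.1 CPM in Insm1-KO and 225 ± 15.9 CPM in Insm1-Het (SD, n = 3 each), a log2 fold change of -0.65 (SE 0.29, 95% interval -1.27 to -0.02). The unadjusted p was 0.0428 and the adjusted p 0.92 (edgeR, quasi-likelihood test, Benjamini-Hochberg), so the difference was not called.

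Irx3 and Irx5, which lie in another Iroquois cluster, were far lower, with fitted changes above 0. Irx3 had 7.69, 17.3 and 36.2 CPM in Insm1-KO and 5.86, 10.1 and 15.2 CPM in Insm1-Het, with overlapping ranges. Its log2 fold change was 0.97 with all libraries, 0.28 without KO replicate 3 and 1.37 without Het replicate 3. Irx5 had 8.97, 6.91 and 54.9 CPM in Insm1-KO and 14.2, 13.8 and 11.2 CPM in Insm1-Het, so that only KO replicate 3 lay above the Insm1-Het libraries. Its log2 fold change was 0.85. Without that library the log2 fold change of Irx5 was -0.71.

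The Pbx and Meis genes encode the TALE partners themselves. Pbx2 had 101.4, 57.4 and 25.2 CPM in Insm1-KO and 65.1, 58.3 and 27.2 CPM in Insm1-Het, with replicate 3 the lowest in both genotypes. Meis3 had 30.1, 27.8 and 26.4 CPM in Insm1-KO, against 34.6, 13.4 and 3.0 CPM in Insm1-Het. The Insm1-KO libraries agreed closely for Meis3, whereas the Insm1-Het libraries spanned the whole range.

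Partners of these proteins were read from a list of 22 genes: the TALE genes Pknox and Tgif, the LIM cofactors Ldb, Ssbp, Lmo and Rlim, and the corepressors Tle, Aes and Ctbp. Of the 19 tested, 0 passed the adjusted threshold in edgeR's quasi-likelihood test and 0 had an unadjusted p under 0.05. The log2 fold changes had a median of 0.18, with 14 above 0 and 5 below, and their median SE was 0.46. Over all genes tested the median log2 fold change was 0.02, with 5957 above 0 and 5757 below. Rlim, an E3 ligase that acts on LIM cofactors, had 320 ± 122 CPM in Insm1-KO and 424 ± 123 CPM in Insm1-Het (SD, n = 3 each). Lmo4, a LIM-only adaptor, had 244 ± 63.4 CPM in Insm1-KO and 190 ± 36.4 CPM in Insm1-Het. Ctbp2, whose gene also encodes the synaptic ribbon protein Ribeye, had 154 ± 32.8 CPM in Insm1-KO and 105 ± 13.5 CPM in Insm1-Het. The log2 fold changes were -0.41 for Rlim (SE 0.31), 0.36 for Lmo4 (SE 0.28) and 0.55 for Ctbp2 (SE 0.305), none of them called. Of the 22 partner genes 16 were at 1 CPM or more in all libraries. The 3 untested ones were Lmo2, with 0 counts, and the Groucho genes Tle2 and Tle6, near 0 in both genotypes.

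Emx2 and Isl1 are the members best known from sensory patches. Emx2 sets the orientation of hair bundles in mouse maculae and zebrafish neuromasts, and Isl1 encodes a LIM-homeodomain factor of prosensory cells and ear neurons. Emx2 (chr19:59458372-59465357, plus strand) had 82.2, 103.2 and 100.3 CPM in Insm1-KO and 76.9, 133 and 45.5 CPM in Insm1-Het. Isl1 (chr13:116298281-116309689, minus strand) had 79.8, 66.0 and 144 CPM in Insm1-KO and 80.1, 127 and 88.4 CPM in Insm1-Het. Both genes overlapped between the genotypes, with log2 fold changes of 0.16 for Emx2 (95% interval -0.73 to 1.05) and -0.03 for Isl1 (-0.86 to 0.80). The antisense gene Emx2os, which shares exon sequence with Emx2, had 221, 19 and 204 counts in Insm1-KO and 478, 197 and 24 counts in Insm1-Het.

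Of the 14 Pou genes, 3 were on. Pou2f1, the broadly expressed octamer-binding factor Oct-1, had 76.8, 123 and 168 CPM in Insm1-KO and 125, 124 and 109 CPM in Insm1-Het. Pou3f3, a factor of neural and kidney development, had 31.2, 45.7 and 82.5 CPM in Insm1-KO and 54.5, 72.5 and 39.5 CPM in Insm1-Het. In both genes the Insm1-KO values reached below and above the Insm1-Het values, and the log2 fold changes were 0.04 and -0.06. Pou6f1 averaged 27.3 ± 14.9 CPM in Insm1-KO and 20.9 ± 8.68 CPM in Insm1-Het (SD, n = 3 each).

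The Tshz genes encode relatives of the fly protein teashirt. Tshz1 had 15.4, 5.61 and 5.45 CPM in Insm1-KO and 5.54, 40.0 and 42.2 CPM in Insm1-Het. Het replicate 1 lay among the Insm1-KO values, so the genotypes overlapped, and the log2 fold change was -1.73 (SE 0.89). Tshz2 had 13.3, 8.61 and 111 CPM in Insm1-KO and 11.6, 25.5 and 32.1 CPM in Insm1-Het, with KO replicate 3 far above the rest. Its log2 fold change was 0.94 with that library and -1.06 without it.

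The 9 tested members below 1 CPM in some library varied widely within each genotype. Zeb2, a repressor of epithelial genes that is typical of mesenchyme and neural crest, had 141, 0 and 5 counts in Insm1-KO and 40, 3 and 908 counts in Insm1-Het. In each genotype 1 library was far above the other 2, and its log2 fold change of -2.26 (SE 1.74) became 1.55 without Het replicate 3. Pou4f1, a factor of ear ganglion neurons, had 45, 15 and 1 counts in Insm1-KO and 6, 27 and 117 counts in Insm1-Het. Lhx6, known from forebrain interneurons, had 7, 43 and 0 counts in Insm1-KO and 84, 2 and 44 counts in Insm1-Het. Altogether 6 of the 9 had 0 counts in at least 1 library while reaching 41 to 908 counts in another.

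Several members were counted almost wholly in a single library. Dlx3, known from epidermis and placenta, had 123, 0 and 0 counts in Insm1-KO and 0, 0 and 7 counts in Insm1-Het. Lhx2, an eye and forebrain factor, had 86 counts in Het replicate 2 and none elsewhere. Nkx6-1, known from pancreas and spinal cord, had 42 counts in KO replicate 1 and in no other library. For Lhx2 and Nkx6-1, 1 whole genotype was at 0, but 2 of the 3 libraries of the other genotype were at 0 as well, so no fold is given. Among members with 10 or more counts in all, 9 of 43 (20.9%) had over 90% of them in 1 library. Over all genes with 10 or more counts the share was 6.64%. The sets were not matched in level, and all 9 members were below the minimum for testing.

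**Figure D4:**
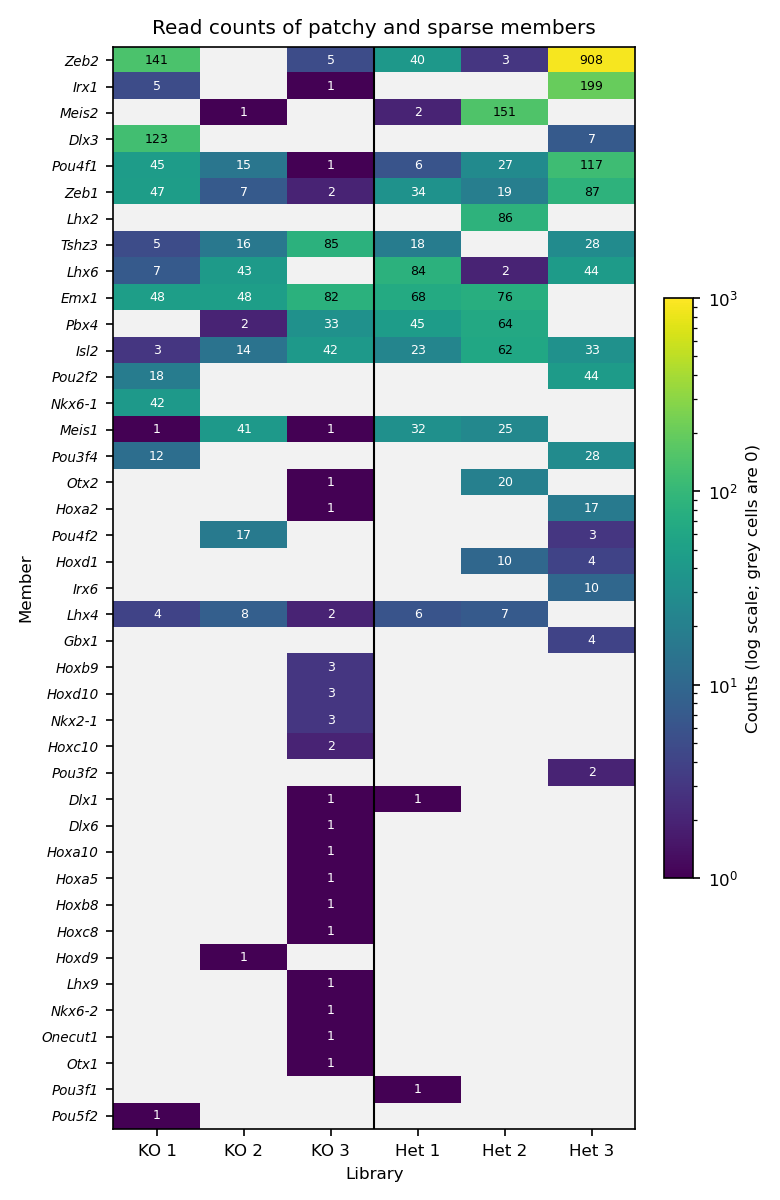
Read counts per library of 41 of the 42 members that were counted but not on in all libraries (colour on a log scale, grey for 0, a line between the Insm1-KO and Insm1-Het libraries). High counts sit in single libraries of either genotype, such as 908 counts of Zeb2 in Het replicate 3 and 123 counts of Dlx3 in KO replicate 1.

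Of these scattered genes, 6 were highest in Het replicate 3 and next in KO replicate 1, a pattern chosen after the values were seen: Zeb1, Zeb2, Pou4f1, Pou2f2, Pou3f4 and Irx1. How many other genes with such scattered counts share this order was not counted, so the 6 are only a description. Pou3f4, a deafness gene that acts in the mesenchyme around the cochlea, had 12 counts in KO replicate 1, 28 in Het replicate 3 and none elsewhere. Of the 10 mesenchyme markers, Col1a2, Col3a1 and Dcn were highest in the same 2 libraries, and the others were not. Col1a2 had 7.90, 0 and 0 CPM in Insm1-KO and 0.0814, 0.0937 and 6.09 CPM in Insm1-Het, and Dcn had 11.2, 0 and 0.890 CPM in Insm1-KO and 1.38, 5.24 and 16.8 CPM in Insm1-Het. Postn and Tbx18 reached 14.9 and 6.24 CPM in Het replicate 3 and stayed under 1 CPM elsewhere. Lum had 5.02, 0 and 40.0 CPM in Insm1-KO and 9.61, 9.55 and 45.1 CPM in Insm1-Het, so that KO replicate 3 came second. Col1a1 was highest in Het replicate 2, with 4.80, 0.522 and 8.46 CPM in Insm1-KO and 2.04, 17.2 and 2.29 CPM in Insm1-Het. Pdgfra, the only marker at 1 CPM or more in all libraries, had 272, 334 and 175 CPM in Insm1-KO and 225, 282 and 349 CPM in Insm1-Het, and Twist1 and Twist2 were at 0 in all. The whole list summed to 316, 335 and 225 CPM in Insm1-KO and 238, 314 and 444 CPM in Insm1-Het, so Het replicate 3 was the highest but KO replicate 1 was below KO replicate 2. Their part in the counts of the 6 genes was not tested.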

How the data were processed

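RNA from sorted outer hair cells, 3 Insm1-KO and 3 Insm1-Het libraries, was analysed from the raw read counts per gene symbol that the authors deposited. Per the labels' protocols, ribosomal RNA was removed, cDNA was primed with random hexamers and amplified, and 100 bp paired reads were sequenced from fragments of about 200 bp. Trimmomatic, STAR, HTSeq and the build GRCm38 (mm10) are named in the submitters' processing notes. Tool versions, annotation, strand setting and treatment of multiply mapping reads were not given in the sources used here, so genes whose exons overlap on either strand are uncertain. Among the genes with values this concerns Cux1, Emx2, Hoxa2, Hoxc10, Irx3, Lhx6, Otx2, Pbx2, Pou2f1, Pou2f2, Tshz2, Zeb1, Zeb2 and Zfhx2, outside the members Lhx3, Ctbp2, Pdgfra and Tbx18, and in the plot of counts also Dlx1, Dlx6, Hoxd10, Irx6, Meis1, Nkx6-2, Onecut1 and Pou3f1. The amplified reads carry no molecular identifiers, so floors of 3 counts cover counting error only.

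Genes were kept by filterByExpr (minimum count 10, minimum total 15), which left 11714 genes and removed 0.274% of the counts. Libraries were scaled by TMM, and genotypes were compared with edgeR 4.0.16 (quasi-likelihood test, two-sided, Benjamini-Hochberg adjustment over all tested genes, threshold 0.05) in R 4.3.3. The SE is the log2 fold change divided by the square root of F. The common biological coefficient of variation was 0.72. The script was tested on simulated data. Lengths came from GENCODE M21 and promoters from RefSeq.

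The members, lists and naming rule were chosen with earlier results of these data known. Named were the 12 on members highest per kilobase, those with an unadjusted p under 0.05 or genotypes without overlap at 5 CPM or more, those at 0 in 1 genotype with a mean of 1 CPM or more in the other, and the most abundant of each family; 2 members that the rule names are not reported here. Members named beyond it (Cux2, Zfhx4, Tshz1, Pou6f1, Pou4f1, Zeb1, Pou2f2, Pou3f4, Irx1) were chosen after their values were seen. Values of the partner genes Rlim, Lmo4 and Ctbp2 are also given, although the rule does not name them. Alternatives were DESeq2 1.42.0, limma-voom 3.58.1, a newer form of the edgeR fit, 3 other scalings, 2 other filters, the replicate number as a block, other levels for on, and leaving out each library.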

Additional observations from a re-analysis of the deposited data

How the results depend on the processing

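No member passed the adjusted threshold in any of the 15 alternatives. Over all genes, where edgeR called 0, DESeq2 called 45, no filter 67 and the newer edgeR form 1. Members at an unadjusted p under 0.05, 3 of 29 as reported, were 5 of 62 with DESeq2 and 8 of 62 with no filter. Over all genes these 2 settings gave 1097 and 1137 of 15648, where the totals are all members and genes with a count. With 1 library left out, such members numbered 1 (without Het replicate 3) to 5 (without KO replicate 1). Of 16 tested members named by rule, 6 (Cux1, Zfhx2, Irx2, Irx3, Meis3, Onecut2) kept their direction in all alternatives. The weakest values of Cux1, Zfhx2 and Irx2 were 0.75, 0.92 and -0.45 on the log2 scale, all without KO replicate 3. Pou2f1 turned to -0.04 with library totals, -0.034 with limma-voom and -0.012 with upper quartile scaling. With 1 library left out, log2 fold changes of both signs were found for Emx2 (-0.13 to 0.64), Irx5 (-0.71 to 1.31), Isl1 (-0.43 to 0.20), Lhx6 (-3.19 to 0.18), Pbx2 (-0.28 to 0.67), Pou2f1 (-0.24 to 0.29), Pou3f3 (-0.52 to 0.21), Tshz2 (-1.06 to 1.45), Zeb2 (-6.40 to 1.55) and Zfhx3 (-0.11 to 0.086); the cause was not tested. The 20 on members became 18 at 5 CPM and 20 to 21 without a library. Members with 0 counts, an alternative chosen after seeing the data, numbered 57 to 70.

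The labels give no pairing by replicate number, and little of it was seen over all genes. Deviations of same-numbered libraries correlated at 0.01, 0.007 and 0.014, and not every library correlated best with its own number. Correlations over all genes cannot settle whether the libraries were paired. With the replicate block 1 gene and 0 members were called, and the log2 fold change of Pou2f1 was -0.027. In that fit 3 of 29 members had an unadjusted p under 0.05, beside 494 of 11714 genes.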

Other observations

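Homeobox genes stood out among the very low counts of KO replicate 3. Members with 1 to 3 counts numbered 3, 3 and 21 in the Insm1-KO libraries and 3, 2 and 2 in the Insm1-Het libraries. Over all genes the same numbers were 643, 830 and 863 in Insm1-KO and 931, 616 and 659 in Insm1-Het, so KO replicate 3 did not stand apart by its low counts as such. Of the 130 genes with 1 to 3 counts in KO replicate 3 and none in any other library, 13 were members (10%). In the other libraries 0 or 1 such gene was a member, at most 0.990%.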
